A study of Saccharomyces cerevisiae with 10 samples.

Results

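The regions described here are peaks of the chromatin protein Swc4 whose highest point, the summit, lay near the beginning of a long gene in Saccharomyces cerevisiae. A member is a nuclear peak with its summit inside exactly 1 protein-coding gene of at least 1500 bp and within the first 500 bp from the annotated start of that gene. By this rule 618 of 4590 peaks were members in the yaf9d list, 472 of 2937 in the eaf1d list, 104 of 1262 in the swr1d list and 67 of 625 in the wild-type list, which makes 1261 of 9414 peaks. Swc4 with a run of 13 Myc epitopes (SWC4-13MYC) was precipitated with an antibody against c-Myc, and the recovered DNA was sequenced (ChIP-seq). The tagged strains were yaf9d, eaf1d and swr1d, which lack YAF9, EAF1 or SWR1, and wild type, and a further group was wild type with no tag. All 4 tagged strains carry the same tagged Swc4, all cultures grew in rich medium at 30 °C to mid-log phase, and each of the 5 groups had 2 repeats. Each deposited peak list pools both repeats of 1 tagged group, so no value has a replicate spread, and no test between genotypes was possible. The untagged samples were not analysed here, so unspecific signal was not measured, and a peak means only that the authors' peak caller reported one.

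Swc4 belongs to SWR1 and to NuA4. SWR1 exchanges histone H2A for the variant H2A.Z, best known from the nucleosomes that flank the promoter, among them the first nucleosome of the transcribed region. NuA4 acetylates histones H4, H2A and H2A.Z. Yaf9 is shared by both complexes and reads acetylated histones, Eaf1 holds NuA4 together, and Swr1 is the motor subunit of SWR1. In yeast the start of the coding sequence usually lies a short way inside the transcribed region, so the first bases of a coding gene fall on the first nucleosomes of the transcript.

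Peak summits were crowded into the beginning of long genes in all 4 lists. The 2248 long genes had a median length of 2154 bp, and 19.4% of their bases lay in the first 500 bp. Of the summits in long genes, 30.1% were in that stretch in yaf9d (618 of 2050, exact Clopper-Pearson 95% interval 28.2 to 32.2), 38.6% in eaf1d (472 of 1223, 35.9 to 41.4), 33.4% in swr1d (104 of 311, 28.2 to 39.0) and 68.4% in wild type (67 of 98, 58.2 to 77.4). Length alone would place 397, 237, 60.2 and 19.0 summits there in yaf9d, eaf1d, swr1d and wild type. The observed share was therefore 1.56 times the share of bases in yaf9d, 1.99 times in eaf1d, 1.73 times in swr1d and 3.53 times in wild type. Every interval lay above 19.4%. The intervals cover counting error only, and peaks of 1 list are not independent. When peaks that reach upstream of the start were left out, which lowers the value by its construction, the ratio was 1.08 in yaf9d (0.984 to 1.18) and 1.15 in eaf1d. With peaks of fold at least 2 alone, swr1d kept 3 members and its ratio was 0.861 (0.185 to 2.14).

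**Figure D1:**
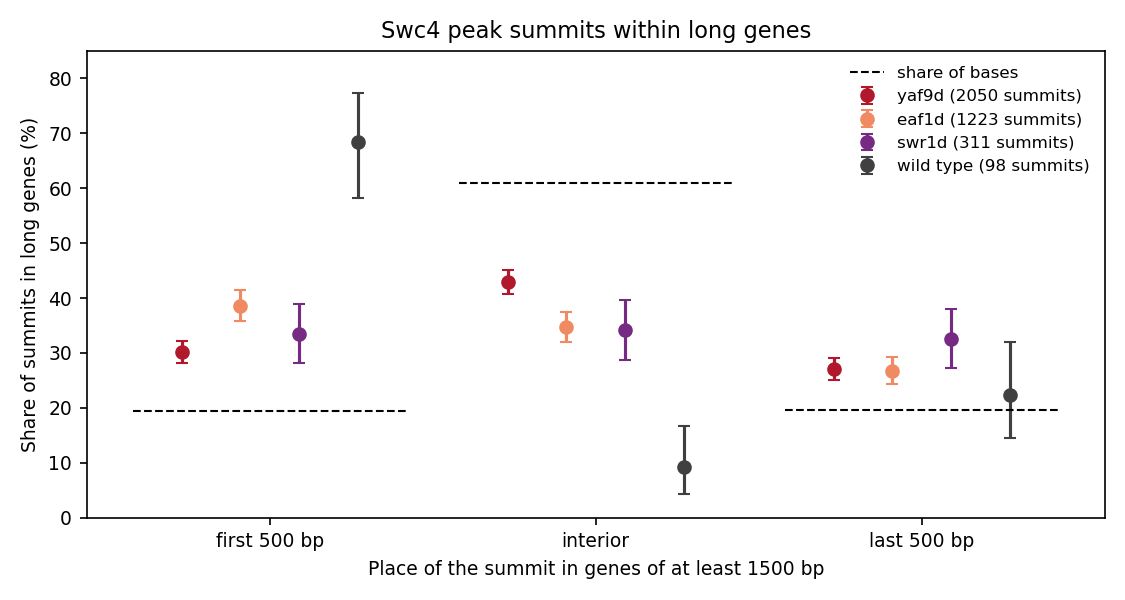
Share of the summits in long genes (y axis, percent) that lay in the first 500 bp, the interior or the last 500 bp (x axis), for yaf9d, eaf1d, swr1d and wild type, with exact Clopper-Pearson 95% intervals for counting error. Dashed lines give the share of bases; in the first 500 bp all 4 points lie above the line of 19.4%, and in the interior all 4 lie below 61.0%.

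Beside the surplus at the beginning of genes, the middle held fewer summits than its length would give. The shares of beginning, interior and end make up a whole, so they do not vary independently. The interior, all that lies more than 500 bp from either end, held 61.0% of the bases but 42.9% of the summits in yaf9d, 34.7% in eaf1d, 34.1% in swr1d and 9.18% in wild type (9 of 98). Per Mb the first 500 bp held 561 summits in yaf9d, 429 in eaf1d, 94.4 in swr1d and 60.8 in wild type, against 253, 122, 30.6 and 2.59 per Mb of interior in the same order of lists. The plot of shares by place in the gene shows both shifts side by side.

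The end of long genes was also richer in summits than its length would give in the mutant lists. The last 500 bp held 494 summits per Mb in yaf9d, 292 in eaf1d, 90.2 in swr1d and 19.6 in wild type. Counting only the summits at either end, the beginning took 52.8% in yaf9d (49.9 to 55.7), 59.1% in eaf1d (55.6 to 62.5), 50.7% in swr1d (43.7 to 57.8) and 75.3% in wild type (65.0 to 83.8), where length alone gives 49.6%. The swr1d interval includes the share from length, the yaf9d interval starts just above it, and the beginning was clearly ahead in eaf1d and wild type. The lead over the end was lost when peaks reaching upstream of the start were left out, a step that thins the beginning and not the end. The density ratio of beginning to end was then 0.690 in yaf9d, 0.653 in eaf1d and 0.924 in wild type. When peaks crossing either end of their gene were left out, it was 0.916 in yaf9d, 1.03 in eaf1d and 3.39 in wild type.

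Measured against the whole nuclear genome rather than against long genes, the picture differed between lists. The first 500 bp of long genes made up 9.13% of nuclear bases and held 13.7% of nuclear peaks in yaf9d, 16.3% in eaf1d, 8.27% in swr1d and 10.7% in wild type. That is 1.50 times the share of bases in yaf9d, 1.78 times in eaf1d, 0.906 times in swr1d (0.746 to 1.09) and 1.17 times in wild type (0.921 to 1.47). In swr1d and wild type the interval spans the share of bases. Among the 625 most significant peaks of each list, the length of the wild-type list, 26 were members in yaf9d, 91 in eaf1d, 13 in swr1d and 67 in wild type. Among these peaks the share in the first 500 bp was 0.462 times that of nuclear bases in yaf9d (0.304 to 0.671), 1.63 times in eaf1d, 0.228 times in swr1d (0.122 to 0.387) and 1.17 times in wild type.

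The share was above the share of bases in each class of gene length and on nearly every chromosome. In genes of 3000 bp and over, where the first 500 bp are 11.1% of the bases, they held 23.1% of summits in yaf9d, 34.0% in eaf1d, 24.6% in swr1d and 66.7% in wild type. In genes of 1500 bp to under 2000 bp, where they are 29.0% of the bases, they held 35.7%, 42.6%, 33.6% (25.1 to 43.0) and 67.4%. The swr1d interval in these shorter genes includes the share of bases. The share exceeded the share of bases on 16 of 16 chromosomes in yaf9d, 16 in eaf1d, 15 in swr1d and 15 in wild type.

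Within the 500 bp the summits were not spread evenly. The median distance from the annotated start was 197 bp in yaf9d (quartiles 122 and 324), 155 bp in eaf1d (101 and 266), 220 bp in swr1d (132 and 355) and 125 bp in wild type (85.5 and 198). The first 250 bp held 63.6% of members in yaf9d, 71.8% in eaf1d, 59.6% in swr1d and 82.1% in wild type. Members of the wild-type list lay closest to the start and those of the swr1d list were the most spread out.

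In steps of 100 bp from the start, the member counts were 93, 220, 133, 85 and 87 in yaf9d, 112, 175, 90, 52 and 43 in eaf1d, 18, 26, 22, 21 and 17 in swr1d, and 24, 27, 7, 0 and 9 in wild type. The step from 100 to 200 bp was the fullest in each list. Its margin in swr1d and in wild type is within counting error. In steps of 50 bp the fullest were 100 to 150 bp in yaf9d (132 members) and eaf1d (112), 200 to 250 bp in swr1d (18) and 50 to 100 bp in wild type (16).

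Just before the start there was a gap. In the 100 bp upstream of long genes, only bases in no coding gene were counted. They held 5 summits in yaf9d, 11 in eaf1d, 1 in swr1d and 2 in wild type, or 22.4, 49.3, 4.48 and 8.96 per Mb. From 100 to 200 bp inside the gene the density was 999 per Mb in yaf9d, 795 in eaf1d, 118 in swr1d and 123 in wild type. Further in, from 700 to 800 bp, it was 236, 140, 22.7 and 4.53 per Mb. Density rose again farther upstream, where it exceeded that inside the gene in swr1d and wild type, as the profile around the gene start shows. Upstream bases in tRNA and other RNA genes were not left out, and their part in this rise was not tested.

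**Figure D2:**
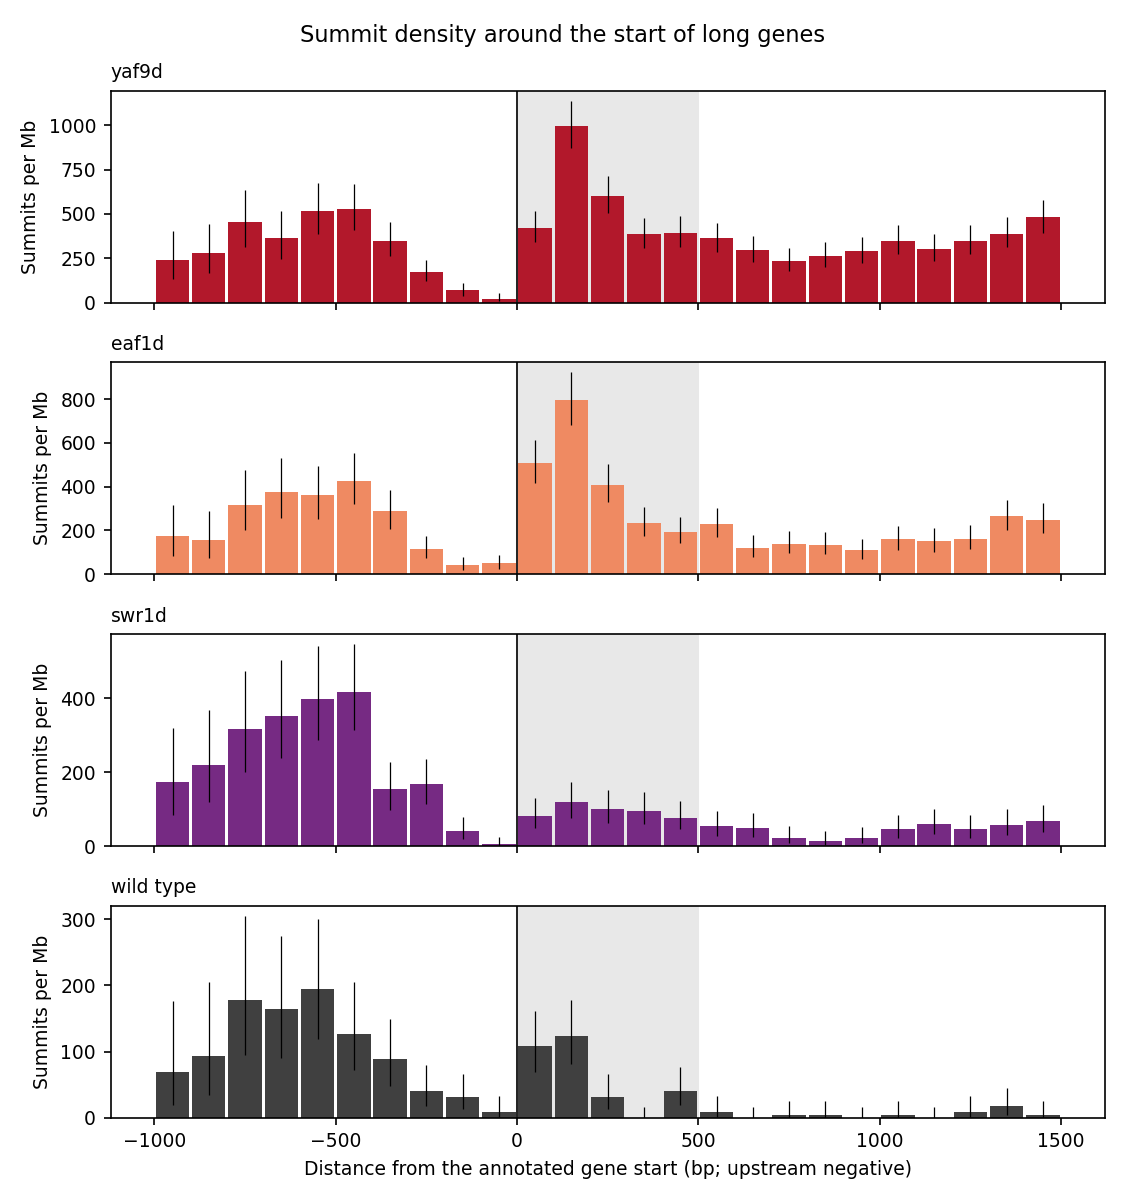
Summits per Mb of eligible bases (y axis, a separate scale for each list) in steps of 100 bp from 1000 bp upstream to 1500 bp downstream of the annotated start of long genes (x axis), for yaf9d, eaf1d, swr1d and wild type, with exact Poisson 95% intervals for counting error. The shaded area is the first 500 bp; the bars just left of the start are near 0 in every list and those from 100 to 200 bp are the tallest inside the gene up to 1500 bp.

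Members were peaks of ordinary or low strength. Strength is given as fold enrichment, the signal at the summit over the local background as the authors computed it, and it is compared only within a list. Its median over members was 1.84 in yaf9d, 1.88 in eaf1d, 1.46 in swr1d and 1.58 in wild type, beside 1.88, 1.85, 1.69 and 1.67 over all nuclear peaks of the same lists. A fold of at least 2 was reached by 187 members in yaf9d (30.3%), 184 in eaf1d (39.0%), 3 in swr1d (2.88%) and 9 in wild type (13.4%), beside 36.2%, 37.0%, 39.0% and 30.4% of all nuclear peaks in the same lists. The eaf1d members were thus close to their list as a whole, and the others were lower, most of all in swr1d. By significance, 13.8% of yaf9d members, 22.0% of eaf1d members, 0 of 104 swr1d members and 5.97% of wild-type members stood in the top 25% of their list.

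Compared with other places around the same genes, members had a higher median fold than interior peaks in eaf1d and wild type. The median fold in the first 500 bp and in the interior was 1.84 and 1.83 in yaf9d, 1.88 and 1.66 in eaf1d, 1.46 and 1.48 in swr1d, and 1.58 and 1.28 in wild type, where the interior held 9 peaks. Peaks with a summit in the 500 bp upstream of a long gene, in no coding gene, were higher in every list. Their medians were 2.42 in yaf9d, 2.34 in eaf1d, 2.86 in swr1d and 2.07 in wild type. Upstream peaks at tRNA and other RNA genes were not left out, and their part in these folds was not tested. Members close to the start were also stronger than those near the 500 bp limit in 3 lists. The median fold from 0 to 100 bp and from 400 to 500 bp was 1.93 and 1.77 in yaf9d, 2.06 and 1.70 in eaf1d, 1.44 and 1.46 in swr1d, and 1.73 and 1.38 in wild type. These medians are descriptions of pooled lists and were not tested.

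**Figure D3:**
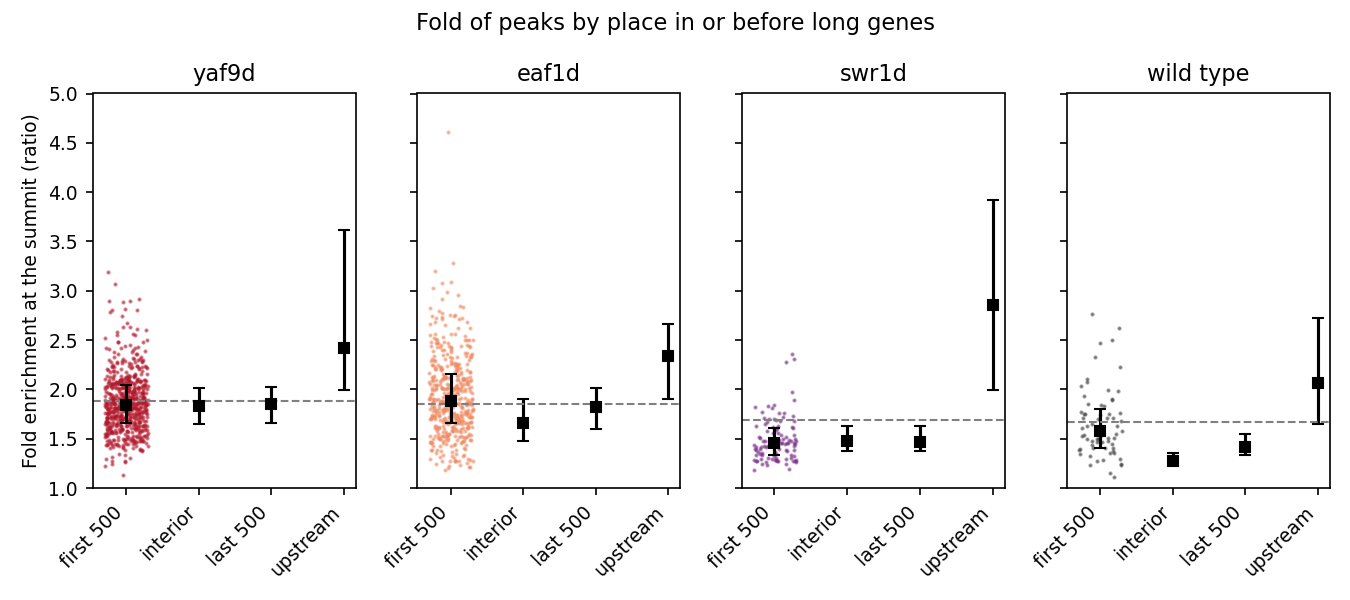
Fold enrichment at the summit (y axis, a ratio) for every member in the first 500 bp (points), with the median and quartiles (squares and bars) there and in the interior, the last 500 bp and the 500 bp upstream of long genes (x axis), for yaf9d, eaf1d, swr1d and wild type. The dashed line is the median of all nuclear peaks; members lie near it in yaf9d and eaf1d and mostly under it in swr1d, and the upstream median is the highest in each list.

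Many members were peaks that straddle the gene start with their summit inside the gene. The peak reached upstream of the start in 245 members of yaf9d (39.6%), 264 of eaf1d (55.9%), 31 of swr1d (29.8%) and 47 of wild type (70.1%, 57.7 to 80.7). It lay wholly inside its gene in 372 (60.2%), 206 (43.6%), 73 (70.2%) and 20 (29.9%) members. Median peak width was 364 bp in yaf9d, 449 bp in eaf1d, 393 bp in swr1d and 541 bp in wild type, and the shortest peak of any kind was 195, 249, 252 and 351 bp long. Wide peaks cross a gene start more easily, and the part of width in these shares was not tested. Members that reached upstream had a median fold of 1.89 in yaf9d, 2.03 in eaf1d, 1.49 in swr1d and 1.71 in wild type, against 1.81, 1.72, 1.43 and 1.47 for those wholly inside.

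The genes that carried members stood more often in head-to-head pairs, in which the upstream neighbour is read the other way. The nearest upstream coding gene was divergent for 53.9% of member genes in yaf9d (49.9 to 57.9), 60.1% in eaf1d (55.5 to 64.5), 60.6% in swr1d (50.5 to 70.0) and 64.2% in wild type (51.5 to 75.5), beside 49.8% of all long genes. The yaf9d, swr1d and wild-type intervals start close above that share, and only the eaf1d interval lies well above it. The gap to the nearest upstream coding gene had a median of 538, 518, 553 and 491 bp, beside 493 bp for all long genes. Member genes were of usual length, with medians of 2121 bp in yaf9d, 2136 bp in eaf1d, 2280 bp in swr1d and 2058 bp in wild type. Few members were near a tRNA gene. Some part of the peak was within 100 bp of one in 1 yaf9d, 2 eaf1d, 0 swr1d and 1 wild-type member. Within 20 kb of a chromosome end lay 15, 14, 1 and 1.

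A separate upstream peak was about as frequent at member genes as at other long genes in yaf9d and swr1d. Such a peak has its summit within 500 bp upstream, in no coding gene. It was present for 13.6% of member genes in yaf9d, 7.43% in eaf1d, 6.73% in swr1d and 1.49% in wild type (1 of 67). For the other long genes the shares were 12.6%, 11.3%, 6.86% and 3.58%. Of the genes with a member, 193 in yaf9d (31.2%), 91 in eaf1d (19.3%), 10 in swr1d (9.62%) and 3 in wild type (4.48%) also had a summit in their last 500 bp, beside 24.6%, 14.5%, 4.49% and 0.979% of all long genes.

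Members fell in 618 genes in yaf9d, 471 in eaf1d, 104 in swr1d and 67 in wild type, so nearly every member had a gene of its own. These are 27.5%, 21.0%, 4.63% and 2.98% of the 2248 long genes. Any peak at all, wherever its summit, overlapped the first 500 bp of 849 long genes in yaf9d (37.8%), 685 in eaf1d (30.5%), 160 in swr1d (7.12%) and 118 in wild type (5.25%). In 747 genes a member was present in at least 1 list, and 1501 had none.

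The 3 mutant lists named many of the same genes. The yaf9d and eaf1d lists shared 360 genes, which is 58.3% of yaf9d and 76.4% of eaf1d member genes, beside backgrounds of 21.0% and 27.5%. The swr1d list shared 88 genes with yaf9d (84.6% of the swr1d genes and 14.2% of the yaf9d genes) and 78 with eaf1d (75.0% and 16.6%). The yaf9d list shared 47 genes with wild type (7.61% of the yaf9d genes and 70.1% of the wild-type genes), the eaf1d list shared 43 (9.13% and 64.2%) and the swr1d list 16 (15.4% and 23.9%). Each share of a list's genes stands beside the share of the other list over all long genes. That background is 27.5% for yaf9d, 21.0% for eaf1d, 4.63% for swr1d and 2.98% for wild type. The control behind the peak calls, and so whether the lists share one, could not be read from the labels, and the overlaps are descriptions. The most frequent combination was yaf9d with eaf1d alone (267 genes), followed by yaf9d alone (230), eaf1d alone (95) and the 3 mutants without wild type (60). All 4 lists held 11 genes, and wild type alone held 9.

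**Figure D4:**
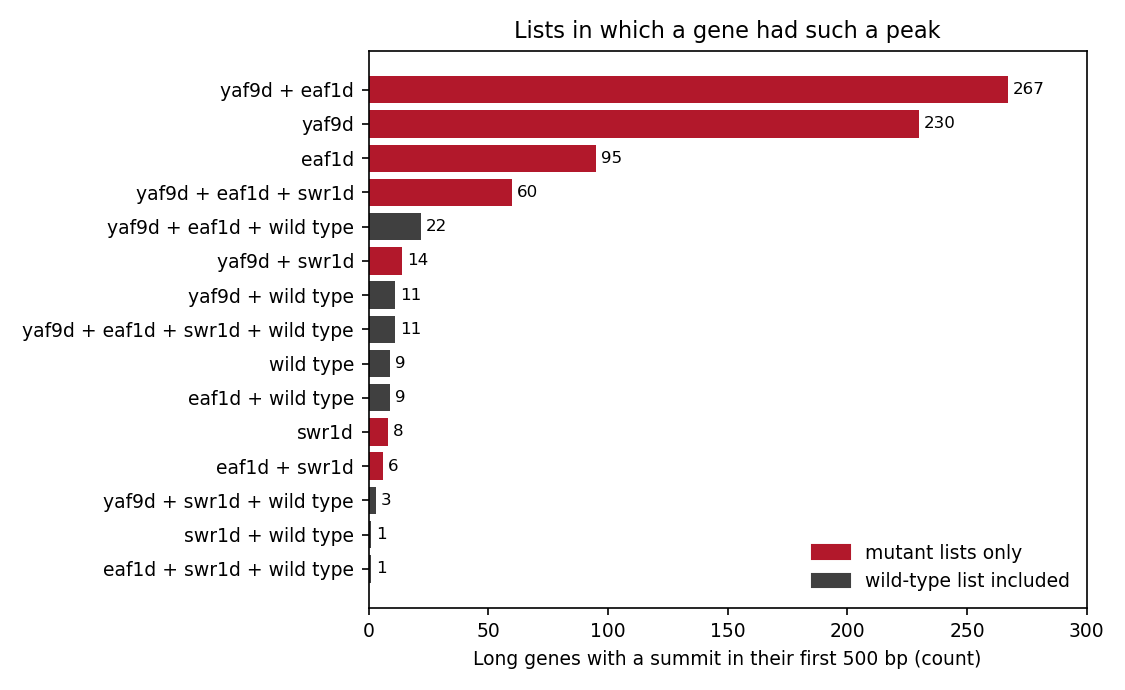
Number of long genes with a member (x axis, count) for each combination of lists (y axis); red bars are combinations of mutant lists and grey bars include wild type. The longest bar is yaf9d with eaf1d at 267 genes, and the bar of all 4 lists stands at 11.

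Where a gene was shared, most summits lay within 50 bp of each other in each pair of lists. A shared gene has both summits in its first 500 bp by the rule, and members crowd near the start, so some closeness is built in. Pairs with a summit upstream of the start or beyond the limit were not counted. No background distance was computed, so how far the closeness exceeds that set by the rule was not tested. In 80.0% of the genes shared by yaf9d and eaf1d the summits were within 50 bp of each other, with a median distance of 13 bp. The share was 70.5% for yaf9d and swr1d, 80.9% for yaf9d and wild type, 66.7% for eaf1d and swr1d, 83.7% for eaf1d and wild type, and 62.5% for swr1d and wild type.

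Most mutant members had no wild-type peak, and most wild-type members had a mutant peak. A wild-type peak overlapped 11.8% of members in yaf9d (73), 12.7% in eaf1d (60) and 20.2% in swr1d (21). The same share was lower for interior peaks, at 1.71%, 1.65% and 1.89%, and for peaks in the last 500 bp, at 3.80%, 3.98% and 8.91%. In the other direction, 89.6% of wild-type members were overlapped by a peak of yaf9d (60 of 67), 76.1% by one of eaf1d (51) and 40.3% by one of swr1d (27). For wild-type interior peaks the shares were 100%, 44.4% and 44.4% (of 9), and for those in the last 500 bp 100%, 59.1% and 59.1% (of 22), so members were not the most often overlapped by yaf9d or swr1d peaks. Of these mutant peaks, 45 in yaf9d, 43 in eaf1d and 16 in swr1d had their own summit in the same window, and 10, 6 and 11 had it upstream of the start. Longer lists overlap more by their length alone. The overlapped share over all nuclear peaks of a list, upstream peaks included, was not computed. These overlaps are therefore not shown to be particular to members. With summits at most 100 bp apart, the overlapped share of wild-type members was 64.2% for yaf9d, 59.7% for eaf1d and 17.9% for swr1d.

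Among the genes with a member in all 4 lists, STE6, which encodes the exporter of the a-factor mating pheromone, was above a fold of 2 in every list. Its peak spanned bases 45836 to 46307 of chromosome XI in yaf9d, 45899 to 46434 in eaf1d, 45913 to 46262 in swr1d and 45900 to 46270 in wild type, in the coordinates of the lists (genome build: not given in the sources used here). Its summit was 217, 217, 227 and 238 bp from the start, and the fold was 2.90, 2.37, 2.36 and 2.11. EFT2, which encodes translation elongation factor 2, had summits at 445, 446, 445 and 445 bp with folds of 2.79, 1.96, 1.76 and 1.84 in yaf9d, eaf1d, swr1d and wild type. Its twin EFT1 had a summit at 446, 446 and 443 bp in yaf9d, eaf1d and wild type. EFT1 and EFT2 are nearly identical, so reads cannot be assigned to one copy with certainty, and these members may be 1 signal counted at both places.

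Several regulators and complex subunits were also in all 4 lists. MGA2 and SPT23 encode related membrane-anchored activators of the fatty acid desaturase gene. MGA2 had folds of 2.44, 1.60, 1.52 and 1.85 in yaf9d, eaf1d, swr1d and wild type, with every summit between 29 and 53 bp from the start. SPT23 had folds of 1.72, 2.47, 1.70 and 1.90, but its summit moved between 81 bp in eaf1d and 276 bp in swr1d. PDR1, the regulator of multidrug resistance, had folds of 2.04, 1.86, 1.42 and 1.68 with summits at 80, 78, 67 and 81 bp. CCT2, which encodes a subunit of the cytosolic chaperonin ring, had folds of 1.89, 2.35, 1.30 and 2.47. Its summit was near 100 bp or less in yaf9d (105 bp), eaf1d (80 bp) and wild type (73 bp), and at 240 bp in swr1d. NUP170 (nuclear pore), PMT2 (protein O-mannosylation), CCT4 (chaperonin) and SYH1 had folds between 1.27 and 2.15.

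The strongest members of the wild-type list included genes of ribosome assembly, translation and chromatin remodelling. BMS1, which encodes a GTPase of small-subunit assembly, led that list. Its fold was 2.26 in yaf9d, 2.10 in eaf1d and 2.76 in wild type, at 135, 124 and 114 bp, and the wild-type peak spanned bases 142791 to 143282 of chromosome XVI. UTP9, a factor of the same assembly pathway, had a fold of 2.07 at 32 bp in yaf9d, 2.54 at 22 bp in eaf1d and 2.62 at 3 bp in wild type. STH1, the motor subunit of the remodeller RSC, had a fold of 2.50 in yaf9d, 2.78 in eaf1d and 2.33 in wild type, with summits at 76, 68 and 85 bp. FUN12, which encodes initiation factor eIF5B, had a fold of 2.13 in eaf1d and 2.50 in wild type, at 102 and 101 bp. None of BMS1, UTP9, STH1 and FUN12 had a swr1d peak. The others of the top 10 were CCT2, RPC82 (RNA polymerase III), STE6, YPR089W, STT3 (protein glycosylation) and RSC8 (RSC), with folds between 1.99 and 2.47.

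The eaf1d list was led by a gene of sporulating cells. RIM4, which encodes an RNA-binding regulator of meiosis, had a fold of 4.61 in eaf1d at 204 bp (chromosome VIII, 56578 to 57147). In yaf9d its fold was 1.57 at 200 bp, and neither swr1d nor wild type had a peak there. XBP1, a stress-induced transcriptional repressor, followed with 3.28 at 84 bp in a peak 3112 bp wide. The yaf9d peak at XBP1 had its summit upstream of the start, at -430 bp, and so was no member. YPR089W had a fold of 1.95 in yaf9d at 42 bp, 3.20 in eaf1d at 30 bp and 2.08 in wild type at 35 bp. The remaining 7 had folds from 2.85 to 3.09 and were NHX1 (a sodium-proton exchanger), MDL2 (a mitochondrial ABC transporter), ATG26 (a sterol glucosyltransferase), PGM2 (phosphoglucomutase), MDM31 (mitochondrial shape), IOC3 (remodeller ISW1) and CVM1. Of the genes with a member in eaf1d alone, XBP1, NHX1, PGM2, CVM1 and TPO3 (a polyamine exporter) had the highest folds. TPO3 also had a yaf9d peak, with its summit at 508 bp.

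In yaf9d the strongest members included genes of iron uptake. SIT1, a siderophore transporter, had a fold of 3.07 in yaf9d, 2.20 in eaf1d and 1.69 in swr1d, at 292, 282 and 103 bp, and no wild-type peak. FRE1, a ferric reductase of the cell surface, had a fold of 2.81 at 454 bp in yaf9d and no peak in the other lists. FET3, the copper oxidase of high-affinity iron uptake, had its member in yaf9d alone (fold 2.63 at 295 bp). Peaks over nearly the same bases were also called in eaf1d and swr1d, with summits at 639 and 628 bp, beyond the limit. These 3 genes were grouped after their values were seen. The other leaders were EFT1 (3.19), SRC1 (an inner nuclear membrane protein, 2.92), KEL3 (2.90), STE6, SSM4 (a ubiquitin ligase of the endoplasmic reticulum, 2.89), SSA1 (a cytosolic Hsp70, 2.82), GPR1 (a glucose receptor, 2.81) and EFT2. BAP3 (an amino acid permease), CDC20 (an activator of the anaphase-promoting complex) and GCR2 (an activator of glycolytic genes) had members in yaf9d alone, with folds of 2.60, 2.55 and 2.48. BAP3 and CDC20 also had eaf1d peaks over nearly the same bases, with summits at 1313 and 525 bp, beyond the limit.

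In swr1d 3 members had a fold of at least 2. After STE6 at 2.36 came SSA1 at 2.31 (236 bp from the start) and CCT8, another chaperonin subunit, at 2.28 (244 bp). SSA1 also had a member in yaf9d (2.82 at 234 bp). In eaf1d a wider peak covered it with its summit at 1848 bp, and wild type had none. The next were HAL5 (a protein kinase, 1.97), AFG3 (a mitochondrial protease, 1.89), PDI1 (protein disulfide isomerase, 1.84), SIZ1 (a SUMO ligase, 1.83), VPS8 (1.82), KCC4 (a kinase at the bud neck, 1.81) and DBP6 (an RNA helicase of ribosome assembly, 1.77). Of the 104 swr1d members, 102 were overlapped by a yaf9d peak (98.1%) and 86.5% by an eaf1d peak. The same shares over all swr1d peaks were not computed, so this overlap is not shown to be particular to members. DBP6, SKG6, HSP78, SEG1 and PTP3 had members in swr1d alone, with folds from 1.40 to 1.77. Of these, HSP78 had no peak in another list. SKG6 and SEG1 had peaks in yaf9d and eaf1d with summits between 512 and 525 bp, just beyond the limit, and PTP3 had peaks in the same lists with summits upstream of the start. At DBP6 the other 3 lists had a peak, also with the summit upstream.

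The wild-type list had members of its own at GCD11 (a subunit of initiation factor eIF2), FIR1, CIN1 (tubulin folding), GUS1 (glutamyl-tRNA synthetase) and GGA1 (Golgi sorting), with folds from 1.61 to 1.75. GCD11, GUS1 and GGA1 had no mutant peak. FIR1 and CIN1 had an overlapping peak in all 3 mutants with its summit upstream of the start, and at CIN1 its fold was 3.84 in yaf9d, 3.70 in eaf1d and 4.35 in swr1d. The 9 such members had a median fold of 1.61, beside 1.57 for the 58 wild-type members of shared genes.

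Chaperone genes had members in every list. Of 28 long chaperone genes, 14 had one in yaf9d (50.0%, beside 27.5% of all long genes), 10 in eaf1d (35.7%, beside 21.0%), 10 in swr1d (35.7%, beside 4.63%) and 6 in wild type (21.4%, beside 2.98%). The eaf1d interval (18.6 to 55.9) includes the share over all long genes. The chaperonin ring, which folds actin and tubulin, took a large part of the chaperone genes with a member. Of its 8 genes, 5 had a member in yaf9d, 6 in eaf1d, 4 in swr1d and 4 in wild type. This subset was picked after its values were seen. CCT5 had folds of 2.09, 2.11 and 1.93 in yaf9d, eaf1d and wild type at 68, 60 and 64 bp. SSA2 had summits at 401, 402 and 401 bp in yaf9d, eaf1d and swr1d. The pairs SSA1 and SSA2, and SSB1 and SSB2, are close copies, and their counts are uncertain for that reason. SSB1 and SSB2 had summits at 463 and 465 bp in yaf9d and at 456 and 457 bp in wild type.

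Translation genes gave high shares in wild type. Of 22 long genes of translation factors, 8 had a member in yaf9d (36.4%) and 5 in eaf1d (22.7%). In swr1d 3 had one (13.6%), and in wild type 7 (31.8%, 13.9 to 54.9). The shares over all long genes were 27.5%, 21.0%, 4.63% and 2.98% in the same order. The yaf9d (17.2 to 59.3), eaf1d (7.82 to 45.4) and swr1d (2.91 to 34.9) intervals include theirs. EFT1 and EFT2 count as 2 genes here but may be 1 signal. Besides EFT1, EFT2, FUN12 and GCD11 the genes with a member included GCD1, a subunit of initiation factor eIF2B. Its folds were 1.59, 2.12 and 1.63 in yaf9d, eaf1d and wild type. These genes also included SUP35, a termination factor (1.96, 1.28 and 1.36 in yaf9d, swr1d and wild type). Of 18 aminoacyl-tRNA synthetase genes, 5 had a member in yaf9d (27.8%), 4 in eaf1d (22.2%), 0 in swr1d and 4 in wild type (22.2%), so the yaf9d and eaf1d shares were at the background of 27.5% and 21.0%. DED81, the asparaginyl-tRNA synthetase gene, had folds of 1.69, 1.49 and 1.71 in yaf9d, eaf1d and wild type, at 91, 80 and 92 bp.

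Ribosome biogenesis genes were below the share over all long genes in eaf1d and above it in wild type. Of 45 long genes, 16 had a member in yaf9d (35.6%), 2 in eaf1d (4.44%), 2 in swr1d (4.44%) and 6 in wild type (13.3%). The shares over all long genes were 27.5%, 21.0%, 4.63% and 2.98%. The eaf1d interval (0.543 to 15.1) lay below its share and the wild-type interval (5.05 to 26.8) above. The yaf9d interval (21.9 to 51.2) includes its share, and swr1d was close to its own. The 2 eaf1d genes were BMS1 and UTP9, which were also in yaf9d and wild type. UTP5, another factor of small-subunit assembly, had folds of 2.63 in yaf9d and 1.83 in wild type, at 89 and 108 bp. NOG2, a GTPase of large-subunit assembly, had 1.76, 1.19 and 1.50 in yaf9d, swr1d and wild type. Of 23 amino acid synthesis genes, 8 had a member in yaf9d (34.8%, 16.4 to 57.3), 3 in eaf1d (13.0%, 2.78 to 33.6), 0 in swr1d and 0 in wild type. Each interval includes the share over all long genes.

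Of 30 genes of chromatin remodellers and acetyltransferases, 11 had a member in yaf9d (36.7%), 12 in eaf1d (40.0%), 3 in swr1d (10%) and 3 in wild type (10%), beside 27.5%, 21.0%, 4.63% and 2.98% of all long genes. EPL1, a subunit of NuA4 named after its values were seen, had folds of 1.61 in swr1d and 1.52 in wild type, at 83 and 78 bp. A yaf9d peak over nearly the same bases had a fold of 2.84. Its summit was upstream of the start, at -389 bp, so it was no member. MOT1, which removes TATA-binding protein from DNA, had 1.64, 1.92 and 1.28 in yaf9d, eaf1d and swr1d. Of 27 cell wall and adhesion genes, 12 had one in yaf9d (44.4%), 11 in eaf1d (40.7%), 3 in swr1d (11.1%) and 2 in wild type (7.41%), among them GAS1, a glucan-modifying enzyme of the wall (1.92, 1.85 and 1.47 in yaf9d, eaf1d and wild type). Of 23 nucleoporin genes, 6 had one in yaf9d (26.1%), 8 in eaf1d (34.8%), 1 in swr1d (4.35%) and 2 in wild type (8.70%), close to the background in yaf9d and swr1d.

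Genes of transport and carbon use are set beside the same shares of 27.5%, 21.0%, 4.63% and 2.98% in yaf9d, eaf1d, swr1d and wild type. Of 26 amino acid and nucleobase permeases, 12 had a member in yaf9d (46.2%), 5 in eaf1d (19.2%), 2 in swr1d (7.69%) and 1 in wild type (3.85%), among them CAN1, the arginine permease, with folds of 2.05, 1.58 and 1.37 in yaf9d, eaf1d and swr1d. Of 27 membrane ATPases and ABC transporters, 7 had one in yaf9d (25.9%), 8 in eaf1d (29.6%), 1 in swr1d (3.70%) and 1 in wild type (3.70%). Of 20 hexose transporters, 4 had one in yaf9d (20%), 3 in eaf1d (15.0%), 0 in swr1d and 1 in wild type (5%). Of 13 glycolysis and fermentation genes, 4 had one in yaf9d (30.8%), 3 in eaf1d (23.1%), 0 in swr1d and 1 in wild type (7.69%). Of 13 genes of fatty acid and sterol synthesis, 5 had one in yaf9d (38.5%), 3 in eaf1d (23.1%), 0 in swr1d and 2 in wild type (15.4%). HXT3, a glucose transporter, had folds of 2.24 in yaf9d and 1.76 in wild type, and FAS1, a fatty acid synthase subunit, had 1.89, 1.61 and 1.50 in yaf9d, eaf1d and wild type. The galactose genes had 2, 1, 0 and 0 of 5, large RNA polymerase subunits 1, 0, 0 and 0 of 6, and the repeated helicase genes of the Y′ telomere elements 2, 1, 0 and 0 of 19. With lists this small, counting error is wide, as the plot of gene lists shows, and none of these shares was tested.

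**Figure D5:**
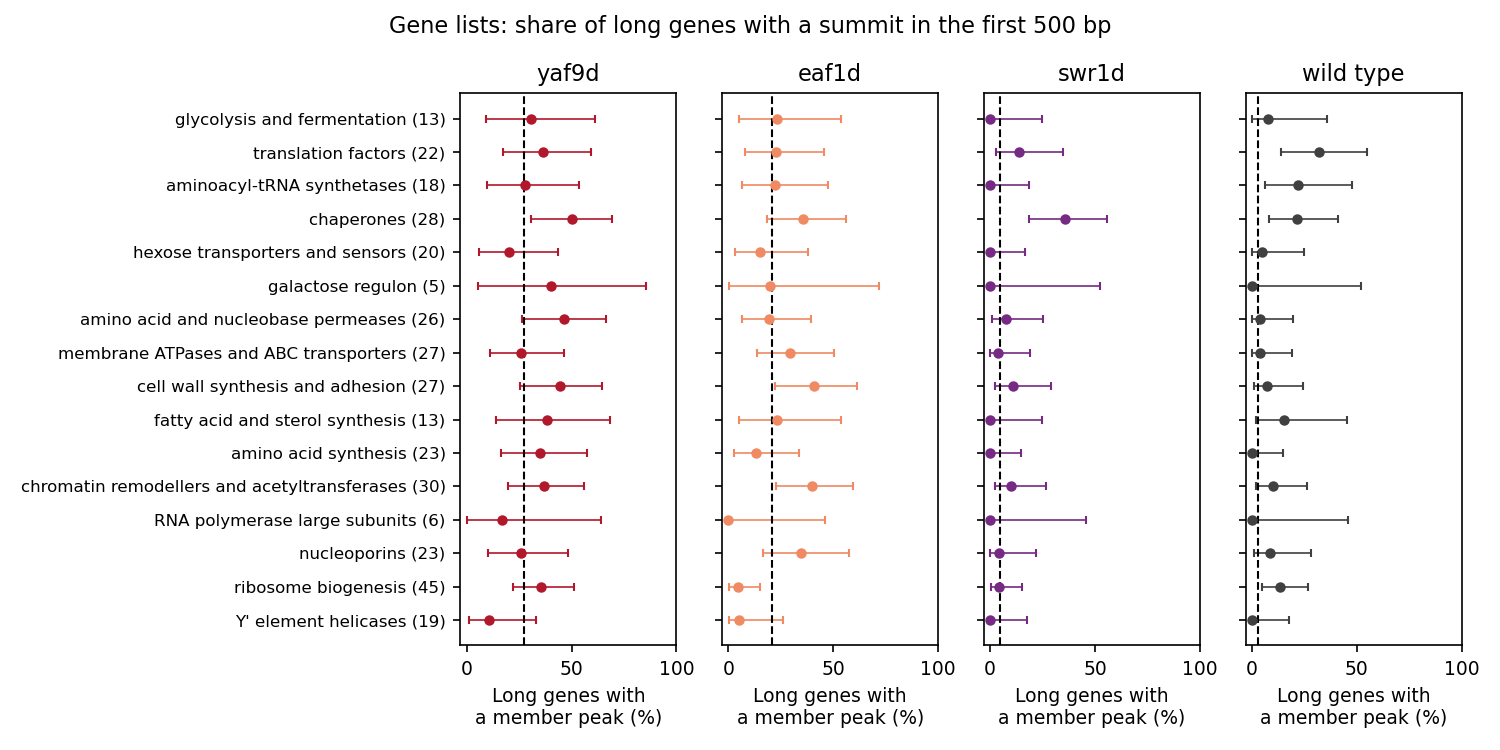
Share of the long genes of each of 16 gene lists (y axis, with the number of long genes in brackets) that had a member (x axis, percent), for yaf9d, eaf1d, swr1d and wild type, with exact Clopper-Pearson 95% intervals for counting error. The dashed line is the share over all 2248 long genes, 27.5%, 21.0%, 4.63% and 2.98%. The chaperone point lies to the right of it in each panel, though its interval includes the line in eaf1d. The ribosome biogenesis point lies to the left of it in eaf1d.

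The genes deleted in the mutants gave only a weak check of the labels, since a deleted gene can give no peak but an intact one need not. YAF9 had no peak in any list, and neither EAF1 nor SWR1 had one in the strain that lacks it. EAF1 was overlapped by peaks in yaf9d alone, and SWR1 by peaks in yaf9d, eaf1d and wild type, none of them a member. SWC4 itself, at 1431 bp too short for the rule, had a summit at 100 bp in yaf9d (fold 2.22) and at 107 bp in eaf1d (2.76), and no peak in swr1d or wild type.

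The limit of 500 bp cut through a continuous distribution. The members just inside it were VBA4 at 499 bp in yaf9d (fold 1.39), SUL2 at 499 bp in eaf1d (1.86), OCA5 at 474 bp in swr1d (1.63) and UTP15 at 493 bp in wild type (1.24). Just outside it lay CCH1 at 500 bp in yaf9d (1.56), ECM33 at 507 bp in eaf1d (1.87), EPS1 at 502 bp in swr1d (1.30) and QDR2 at 516 bp in wild type (1.36).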

How the data were processed

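Per the labels, the repeats of a tagged group were merged into 1 deposited list. Per the submitters' processing notes, fastp 0.21.0, BWA 0.7.15-r1140, SAMtools 1.4 and MACS2 were used; MACS2 settings, control, genome build and read depth: not given in the sources used here. Per peak, the authors' values are a fold ratio at the summit, −log10 p (not used), −log10 q (lowest deposited value 1.31 in each list) and a deposited score, 10 times −log10 q (not used). Fold was taken to describe and rank peaks, −log10 q to rank them.

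Genes, symbols and strands (from locus tags) came from a RefSeq gene table of assembly R64 with 6002 nuclear coding genes. As 96.4% of the gene lengths are multiples of 3, lengths are coding lengths and the start is that of the coding sequence. To check the assembly, summits were set against the 275 tRNA genes: the midpoint of 114, 76, 112 and 34 of them had one at most 60 bp away in yaf9d, eaf1d, swr1d and wild type, against 3, 4, 3 and 4 after a shift of 500 bp. Chromosomes were taken to end at the furthest gene or peak. Only bases and summits in exactly 1 gene counted as long-gene bases and summits. Scripts used Python 3.11.15, pandas 2.3.3 and scipy 1.17.1 and were tested on simulated data.

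Members, the 16 gene lists and the comparisons were chosen with earlier results of these data known. The text names genes by a rule: per list the 10 members of highest fold, the 10 genes in all 4 lists of highest lowest fold, 5 per list found there alone, the genes SWC4, YAF9, EAF1 and SWR1, up to 4 genes of each gene list, and members next to the 500 bp limit. Promoter sequences were to be compared and were not used here.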

Additional observations from a re-analysis of the deposited data

How the results depend on the processing

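Below, the gene ratio is the share of long-gene summits in the first 500 bp over the share of bases, the end ratio the density there over that in the last 500 bp, and the nuclear ratio the share of nuclear peaks over that of nuclear bases. With peaks that also cover the start left out, the gene ratio was 1.08 in yaf9d, 1.15 in eaf1d, 1.35 in swr1d and 2.03 in wild type, the end ratio 0.690, 0.653, 0.735 and 0.924, and the nuclear ratio 1.07, 1.05, 0.716 and 0.519. Genes with a member were then 373 in yaf9d, 208 in eaf1d and 20 in wild type. With peaks not wholly inside 1 gene left out, chosen after seeing the data, the gene ratio was 1.17 in yaf9d, 1.31 in eaf1d and 2.95 in wild type, the nuclear ratio 1.21, 1.24 and 0.628 and the genes 372, 206 and 20 in the same lists, and the end ratio was 0.916 in yaf9d and 1.03 in eaf1d. By construction the first of these steps thins the beginning of genes alone, and the second thins both the beginning and the end. At a fold of at least 2, the gene ratio was 1.68 in yaf9d, 2.67 in eaf1d, 0.861 in swr1d and 4.65 in wild type, with 187, 184, 3 and 9 genes. The end ratio was 1.99 in eaf1d and 0.339 in swr1d, wild type had no summit in the last 500 bp and so no end ratio, and the nuclear ratio was 1.25 in yaf9d, 0.0669 in swr1d and 0.519 in wild type. At equal list length the gene ratio was 1.98 in yaf9d, 2.85 in eaf1d and 1.40 in swr1d, the nuclear ratio 0.462, 1.63 and 0.228 and the genes 26, 91 and 13, and the end ratio was 2.01 in eaf1d and 0.661 in swr1d. At −log10 q of at least 5, swr1d had 48 genes and a nuclear ratio of 0.604. In the first 250 bp the gene ratio was 1.98 in yaf9d, 2.87 in eaf1d, 2.06 in swr1d and 5.80 in wild type, the end ratio 1.35 in yaf9d and 1.81 in eaf1d, the nuclear ratio 1.91 in yaf9d, 2.56 in eaf1d and 1.93 in wild type, and the genes 393 in yaf9d and 62 in swr1d. In the first 750 bp the gene ratio was 1.32 in yaf9d, 1.60 in eaf1d, 1.43 in swr1d and 2.46 in wild type, and the nuclear ratio 1.27 in yaf9d, 1.43 in eaf1d and 0.818 in wild type. With genes of at least 1000 bp the gene ratio was 1.37 in yaf9d, 1.73 in eaf1d and 2.73 in wild type, and the genes 938, 709, 174 and 114 in yaf9d, eaf1d, swr1d and wild type. With genes of at least 3000 bp the gene ratio was 2.08, 3.06, 2.22 and 6.00 and the genes 130, 105, 17 and 14 in the same order, the end ratio 1.70 in eaf1d and the nuclear ratio 0.673 in swr1d. With the peak midpoint in place of the summit, the nuclear ratio in wild type was 0.841. A wild-type counterpart with summits at most 100 bp apart was found for 6.96% of yaf9d, 8.47% of eaf1d and 10.6% of swr1d members, and a counterpart in yaf9d, eaf1d and swr1d for 64.2%, 59.7% and 17.9% of wild-type members. With a fold of at least 2 in both lists these were 4.81%, 7.07% and 33.3%, and 55.6%, 100% and 11.1%. They rest on 187 yaf9d, 184 eaf1d and 3 swr1d members and on 9 wild-type members, so the swr1d and wild-type shares are coarse. The cause of the moves without a stated construction was not tested. The gene ratio was above 1 in all 14 settings in yaf9d, eaf1d and wild type and in 13 in swr1d. No paired analysis was possible because each list pools both repeats of its group, and for the same reason no repeat could be left out. The comparison of promoter sequences was not run. Depth per sample is unknown, so a gene without a peak is not shown to lack Swc4.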
